A study of Rattus norvegicus with 12 samples.

Results

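A set of 9 genes of the neuronal microtubule and neurofilament skeleton, of 6284 genes named on the arrays, was followed through a rapid change of network activity in cultured rat hippocampal neurons. The genes were proposed with earlier results of these data known, and their spots were taken by gene symbol alone: every spot that the platform annotation assigns to TUBB3, MAPT, NEFM, INA, KIF1A, MARK4, TBCB, CDK5 or CDK5R1 was included. This gave 10 clones of 9600 spots, 2 for TUBB3 and 1 for each of the other genes. The clones are human complementary DNA and the labelled RNA came from rat, so a spot can also hold signal from related transcripts.

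Hippocampal cells of Sprague Dawley rats at embryonic day 18.5 were cultured for 12 days, per the study's methods on a layer of glial cells, and 3 coverslips were pooled for each sample. Before any treatment, every culture spent 3 h in blockers of glutamate receptors (D-APV at 50 µM, CNQX at 40 µM) and of sodium channels (TTX at 100 nM). Cultures were then made active with bicuculline (50 µM) and 4-aminopyridine (500 µM; BiC/4AP) or kept in the blockers (Block), in each case with actinomycin D (ActD, 25 µM), which stops transcription, or without it, and each of these 4 states was measured at 5, 30 and 60 min. Each of the 12 conditions has 1 nylon array, and no condition has a replicate. The labels give the times as lengths of treatment, whereas the methods describe a brief stimulus with harvest at the later points, and the times printed here are those of the labels.

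Microtubules are hollow polymers of alpha and beta tubulin that stiffen axons and dendrites and serve as tracks for transport. In neurons they contain the beta tubulin TUBB3 and are bound and spaced in axons by tau, the product of MAPT, whose grip on the lattice is loosened by phosphorylation. MARK4 and CDK5 are kinases that phosphorylate tau, and CDK5 is active only with a partner such as p35, the product of CDK5R1. TBCB is a folding cofactor that handles alpha tubulin, and KIF1A is a kinesin motor that carries synaptic vesicle precursors along axons. Neurofilaments are a separate, flexible polymer that fills axons, here represented by the medium subunit NEFM and by alpha-internexin (INA).

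The median raw spot intensity of an array ran between 52.6 and 137. Levels are given below as raw intensity or as a scaled log2 level, which is a z-score over all spots of an array put back on a log2 scale by the average SD of the arrays (2.15), so that 0 is the average spot of that array. As a measure of background, the last position of each block of 25 spots was used, 384 positions that the annotation does not list. The neuronal markers held 7 of 13 genes on the array, and their 10 clones all averaged above the brightest of these positions, with a median at the 61.2nd percentile of all spots. Of 9 microglial markers, 4 were measured, and their 4 clones were above it too, with a median at the 71.1st percentile. Levels of different clones were not compared as amounts of RNA. The mean level of the neuronal marker clones overlapped between the activity states (0.18 to 0.51 in BiC/4AP and 0.18 to 0.56 in Block).

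The 10 clones ran through the lower and middle intensity range of the array. KIF1A and MAPT were the brightest by mean, at the 68.5th and 67.8th percentile of all spots, followed by CDK5 (54.1), NEFM (51.6), the second TUBB3 clone (47.8) and the first (40.6). CDK5R1 (18.4) and INA (12.3) were dim but lay above the 95th percentile of the unlisted positions on 12 of 12 arrays. MARK4 (6.43) and TBCB (5.39) lay above that percentile on 4 arrays and 1 array, and above the brightest unlisted position on 0 arrays each. The other 8 clones had a mean above that of the brightest unlisted position. Each neighbour in this order overlapped the next over the 12 arrays, so the order is that of mean array signal only.

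**Figure D1:**
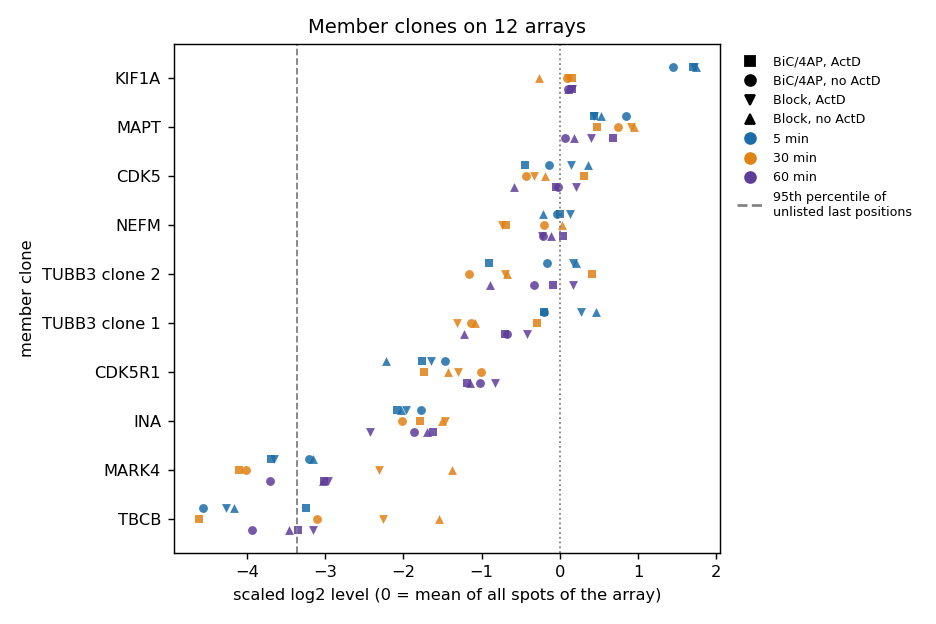
Scaled log2 level of the 10 member clones on each of the 12 arrays, 1 point per array, with colour for the time and shape for the state; 0 is the mean of all spots and the dashed line is the 95th percentile of the mean level of 384 unlisted positions. KIF1A splits into 4 high points at 5 min (1.44 to 1.74) and 8 low ones later (-0.26 to 0.16), and MARK4 and TBCB reach furthest to the right on the 2 Block arrays at 30 min.

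The first comparison asked whether an active network changes the RNA of these genes relative to a silent one. Over the 6 matched pairs of BiC/4AP and Block arrays, 0 of the 10 clones passed the test, in which limma was fitted to all 9600 spots with Benjamini-Hochberg adjustment, and 0% of all spots passed. At an unadjusted p under 0.05 there was 1 clone of 10, MARK4, against 5.19% of spots. The median difference of the members was -0.02 on the log2 scale, against 0.00 over all spots. In such bulk RNA, fewer cells of a type and less RNA per cell cannot be told apart.

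The estimates for the filament subunits and tau lay close to 0. With ActD, NEFM read 86.3, 57.2 and 80.9 at 5, 30 and 60 min in BiC/4AP, against 106, 46.1 and 81.9 in Block. Without ActD it read 106, 62.8 and 74.6 in BiC/4AP, against 116, 79.9 and 61.8 in Block. The groups overlapped throughout, and BiC/4AP minus Block was 0.01 (SE 0.09, 95% interval -0.21 to 0.23) on the scaled log2 scale. INA, the other filament subunit, gave -0.01 (interval -0.41 to 0.38), and differed most in the 60 min pair with ActD, where it read 24.2 in BiC/4AP and 16.0 in Block. MAPT gave -0.02 (interval -0.30 to 0.25), with raw intensity between 91.9 and 191 in BiC/4AP and between 77.0 and 192 in Block. Its groups overlapped as well. The named clones with the most similar levels over the 12 arrays were ABAT (r 0.94), ITGB3BP (0.91) and SMU1 (0.88) for NEFM and EXT2 (0.89), SLC33A2 (0.86) and XPO5 (0.83) for INA. For MAPT they were ARAF (0.97), MCCC1 (0.97) and ECSIT (0.96), and no member was among these.

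The motor gene KIF1A was as close to 0, at 0.01 (SE 0.10, interval -0.21 to 0.24). At 60 min its scaled levels were 0.16 with ActD and 0.11 without it in BiC/4AP, against 0.16 and 0.11 in Block, so each of these pairs held nearly equal levels. TUBB3 gave 0.01 (SE 0.22) for its first clone and -0.09 (SE 0.27) for the second, CDK5 gave -0.06 (SE 0.19) and CDK5R1 0.07 (SE 0.17). The intervals of the TUBB3 clones, -0.50 to 0.53 and -0.71 to 0.53, are wide enough to hold changes of either sign, and their pairs went in opposite directions.

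The 2 dimmest clones had the lowest estimates. MARK4, the tau kinase, was lower in BiC/4AP in 6 of 6 pairs, a pattern seen in 0.844% of all spots, with a mean difference of -0.87 (SE 0.37, unadjusted p = 0.045 and adjusted p = 0.90 by limma). TBCB, the folding cofactor, was lower in 5 of 6 pairs, with -0.66 (SE 0.39, adjusted p = 0.90). Neither passed the test over the 6 pairs. The MARK4 value was -0.52 once the 30 min pair without ActD was left out, and the TBCB value -0.32 once that with ActD was.

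The study called a transcript changed from its z-fold, with a limit of 1.4 to be passed on the same side in both the ActD pair and the pair without ActD. Here a z-fold was taken as the BiC/4AP minus Block difference of z-scores in 1 pair of arrays over the SD that this difference had among the 9600 spots, a form that is assumed because the sources used here do not print it. Of the 60 z-folds of the members, 9 passed 1.4 (4 higher and 5 lower with activity), against 6.76% of all z-folds. They lay in the 30 min pair with ActD (4 clones), the 5 min pair with ActD (2), the 30 min pair without ActD (2) and the 60 min pair with ActD (1). Beside those described below, TBCB was higher in BiC/4AP in the 5 min pair with ActD (1.84, where 2.32% of spots passed on that side) and INA in the 60 min pair with ActD (1.5, where 3.27% did). No z-fold has a p-value, since each rests on 2 arrays.

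**Figure D2:**
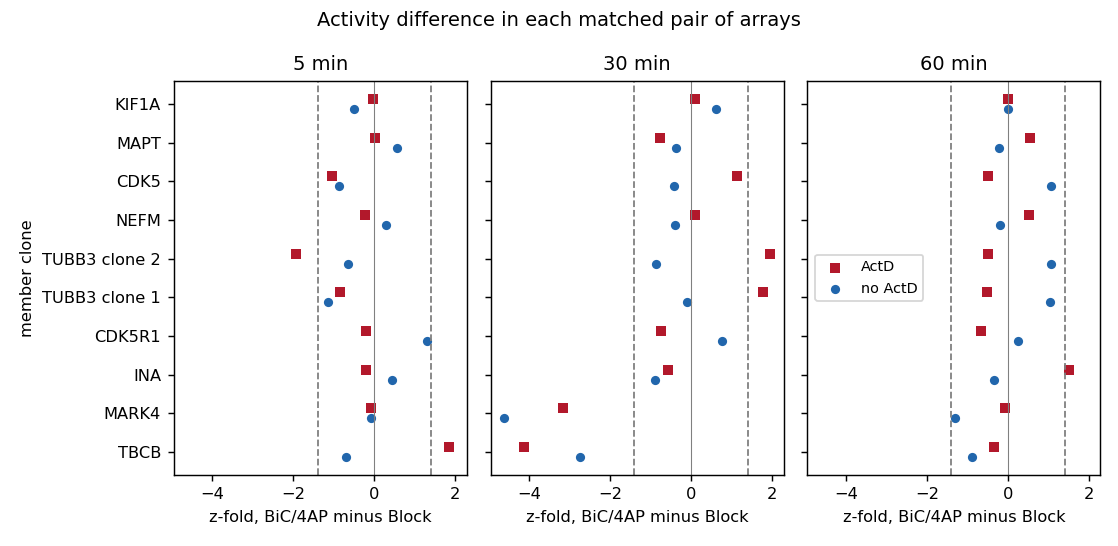
Z-fold (BiC/4AP minus Block) of each member clone at 5, 30 and 60 min, with 1 point for the pair of arrays with ActD and 1 for the pair without it; the dashed lines mark 1.4 in either direction. MARK4 (-3.15 and -4.62) and TBCB (-4.12 and -2.74) are past the limit in both pairs at 30 min, and no other clone is past it in both pairs of any time.

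At 30 min both dim clones were below the limit in both pairs. MARK4 read 5.56 with ActD and 4.96 without it in BiC/4AP, against 15.6 and 31.2 in Block, which gave z-folds of -3.15 and -4.62. TBCB read 3.92 with ActD and 9.08 without it in BiC/4AP, against 16.0 and 28.0 in Block, with z-folds of -4.12 and -2.74. In each gene the 2 Block arrays of 30 min were the highest of all 12 arrays. The 2 BiC/4AP arrays of 30 min were the lowest of the 12 for MARK4, whereas for TBCB, on the scaled axis, the one with ActD was the lowest and the one without ActD was the highest after the 2 Block arrays.

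The 2 members that passed on the lower side compare with 0.438% of all spots at 30 min, and 0 members passed on the higher side, against 0.615%. At 5 min 0 members passed in both pairs on either side, against 0.542% of spots lower and 0.531% higher, and at 60 min 0 members, against 0.583% and 0.344%. In the limma fit of activity within a time, MARK4 differed by -2.21 (SE 0.26, unadjusted p = 0.00018, adjusted p = 0.57) and TBCB by -1.95 (SE 0.37, unadjusted p = 0.0022, adjusted p = 0.85). Neither passed after adjustment, as was true of all but 0.0104% of spots. They were the 2 members with an unadjusted p under 0.05 at 30 min, where 5.59% of spots had one, and with the 10th percentile of each array added before the log the differences were -1.06 and -0.91. At 5 min the same differences were -0.05 and 0.31, and at 60 min -0.36 and -0.33. No member passed at these times (0% of spots), and 0 had an unadjusted p under 0.05, against 3.66% of spots at 5 min and 2.44% at 60 min. The change between 5 and 30 min, a contrast added after the values were seen, was -2.16 (SE 0.37, adjusted p = 0.84) for MARK4 and -2.26 (SE 0.53, adjusted p = 0.84) for TBCB, where 0% of spots passed and 5.57% had an unadjusted p under 0.05. Between 30 and 60 min the change was 1.85 (SE 0.37, adjusted p = 1) and 1.62 (SE 0.53, adjusted p = 1), against 3.52% of spots with an unadjusted p under 0.05, and between 5 and 60 min no member had one, against 1.72% of spots.

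All of these readings were close to the background of the membranes. On the 30 min Block arrays the 95th percentile of the unlisted positions was 16.9 with ActD and 20.4 without it, and their maximum 51.7 and 60.2. MARK4 and TBCB passed the 95th percentile only on the array without ActD, and on neither array the maximum. That percentile was itself higher on the 30 min arrays (11.2 to 20.4) than on the 5 and 60 min arrays (10 to 10.3), and the unlisted positions reached their highest reading, 221, on the BiC/4AP array of 30 min without ActD. No array put these 2 clones above the brightest unlisted position. Their log2 differences therefore compare readings near background and are not read here as a change in RNA. No linear fold is given for them, and the part of the background in their difference was not tested. In the other 10 arrays MARK4 read at most 15.2 and TBCB at most 10. With the last position left out, the 23 other spots of the block that holds MARK4 had a median difference of 0.05 at 30 min (-0.92 to 0.69). Those around TBCB had 0.02 (-0.34 to 0.50), so the spots that share their blocks lay around 0.

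**Figure D3:**
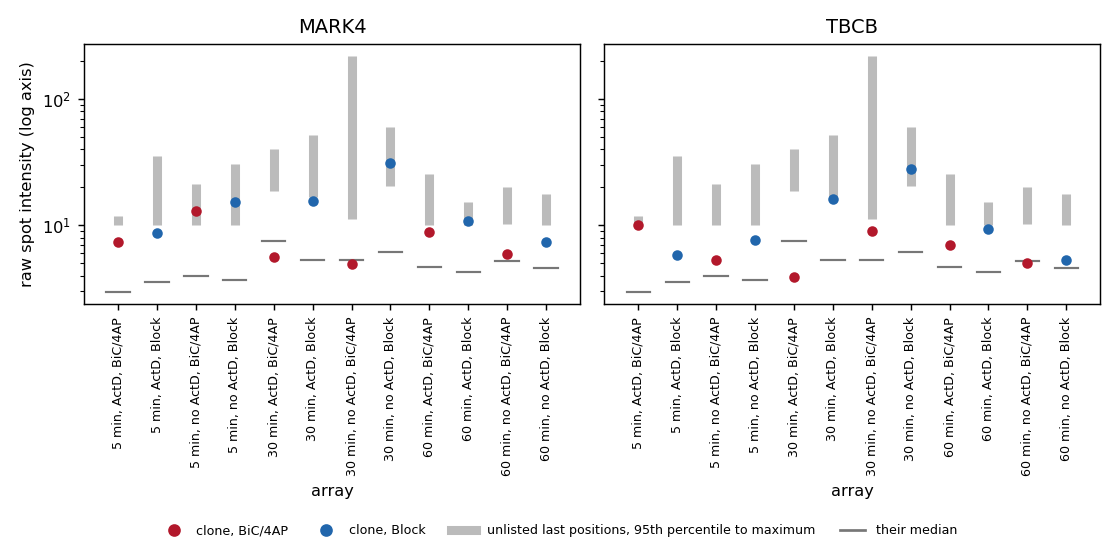
Raw spot intensity (log axis) of MARK4 and TBCB on each of the 12 arrays, with BiC/4AP beside its matched Block array; grey bars run from the 95th percentile to the maximum of the 384 unlisted positions of that array and short lines mark their median. Both clones are highest on the 2 Block arrays at 30 min, and no point lies above the grey bar of its array.

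TUBB3 was represented by 2 clones. At 5 min the first clone read 75.3 with ActD and 95.1 without it in BiC/4AP, against 117 and 184 in Block, and the second read 47.4 and 97.9 in BiC/4AP, against 110 and 155 in Block. Every BiC/4AP value was lower than both Block values of its clone, but how many of all spots share this order was not counted. The median spot of the array was also lower in BiC/4AP, at 81.83 with ActD and 106.3 without it, against 95.35 and 136.7 in Block. The z-folds were -0.85 and -1.15 for the first clone and -1.94 and -0.64 for the second, so neither clone passed 1.4 in both pairs. The scaled differences at 5 min were -0.57 (SE 0.32) and -0.72 (SE 0.43), with an adjusted p of 0.96 for both in limma, where 0% of spots passed. With the 10th percentile of each array added before the log, the first TUBB3 clone passed 1.4 in both pairs (-1.53 with ActD and -2.21 without it), and so did CDK5 (-1.83 and -1.64), against 1.84% of spots. The same held with only the brightest 6400 spots kept, against 1.88%. With block medians subtracted, neither TUBB3 clone and not CDK5 passed in both pairs. Their 5 min z-folds were then -0.63, -1.86 and -0.67 with ActD, and -0.71, 0.14 and 0 without it. Of the 23 other spots of each block, 10, 18 and 20 were lower at 5 min (medians 0.01, -0.20 and -0.23). The part of the position on the membrane was not tested.

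At 30 min the 2 pairs differed. With ActD, the first TUBB3 clone read 74.5 in BiC/4AP and 31.1 in Block, and the second 121 in BiC/4AP and 47.6 in Block, with z-folds of 1.78 and 1.95, in a pair where 4.14% of spots passed in that direction. Without ActD they read 33.6 and 33.1 in BiC/4AP, against 38.0 and 50.2 in Block (z-folds -0.09 and -0.87). The z-fold of -1.94 of the second clone at 5 min stood in a pair where 3.49% of spots passed on that side. At 60 min the order turned again, with differences of -0.28 and -0.26 with ActD and 0.54 and 0.56 without it. In the scaling used, the 2 clones took the same sign in every pair. With block medians subtracted, their signs differed in the 5 min and 30 min pairs without ActD. Over the 12 arrays their levels had a Pearson r of 0.71, which was 0.89 after each time's mean was removed.

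CDK5, the kinase, followed the same course. It read 64.3 with ActD and 99.1 without it in BiC/4AP at 5 min, against 107 and 172 in Block, and 112 and 53.8 in BiC/4AP at 30 min, against 61.2 and 69.2 in Block. At 60 min it read 75.9 and 85.7 in BiC/4AP, against 114 and 43.8 in Block. In the scaling used, both TUBB3 clones and CDK5 were lower in BiC/4AP in the same 4 pairs and higher in the same 2. The latter were the 30 min pair with ActD and the 60 min pair without it. The correlation of CDK5 with the second TUBB3 clone over the 12 arrays was 0.94, and within times it was 0.95 with either TUBB3 clone.

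Many of the remaining tubulin clones had a similar course. Of the 3 named clones most like the second TUBB3 clone over the 12 arrays, 2 were beta tubulins, TUBB4B (r 0.97) and TUBB2A (0.96), beside SLX1B (0.98). TUBB2A was also among the 3 nearest to CDK5 (r 0.96), after CASP6 (0.97) and EZH1 (0.97). In a look taken after this was seen, 27 of the 41 clones of the other tubulin genes had an r over 0.8 with the second TUBB3 clone, whereas 1.80% of all named clones did. Among the 27 were 12 of 17 beta tubulin clones and 15 alpha tubulin clones. The brightest tubulin clones were not among them. The TUBA1B clones with a mean log2 intensity of 10.1 to 12.8 had an r of -0.74 to 0.31, and TUBA1A (9.09) had 0.22. An r over 0.8 with CDK5 was found for 16 of 41, against 1.81%, and with the first TUBB3 clone for 2 of 41, against 6.75%. The clones nearest to the first TUBB3 clone were MRPL45 (r 0.97), CEP68 (0.95) and DCTPP1 (0.95), none of them a tubulin. These correlations are descriptions over 12 arrays that share hybridisation and brightness, and the clones of a tubulin family can share signal because their sequences are alike. The level of the first TUBB3 clone had an r of 0.92 with the log2 median intensity of the array, against 0.62 for the second TUBB3 clone and 0.64 for CDK5, and the part of array brightness in these patterns was not tested.

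TUBB2A read 99.8 with ActD and 233 without it in BiC/4AP at 5 min, against 275 and 460 in Block. At 30 min it read 353 and 99.5 in BiC/4AP, against 111 and 133 in Block. The median of the tubulin list had the same sign as TUBB3 and CDK5 in each pair. Its 41 clones stand for 14 genes, with 13 clones of TUBA1B and 7 of TUBB4B, so they are not separate genes. In the 5 min pair with ActD 37 were lower in BiC/4AP (median difference -1.03), against 46.1% of all spots. In the pair without it 34 were (-0.33), against 51.2%. In the 30 min pair with ActD only 4 were lower (median 0.66), against 49.5% of spots. Without ActD 31 were (median -0.78), against 47.2%. At 60 min 24 were lower with ActD (median -0.14), near the 50.1% of all spots. Without it 11 were (median 0.28), against 48.6%. The median over all spots stayed between -0.01 and 0.03 in each pair. Over the 6 pairs the tubulin list had a median difference of -0.19, and 0 of its 41 clones passed.

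**Figure D4:**
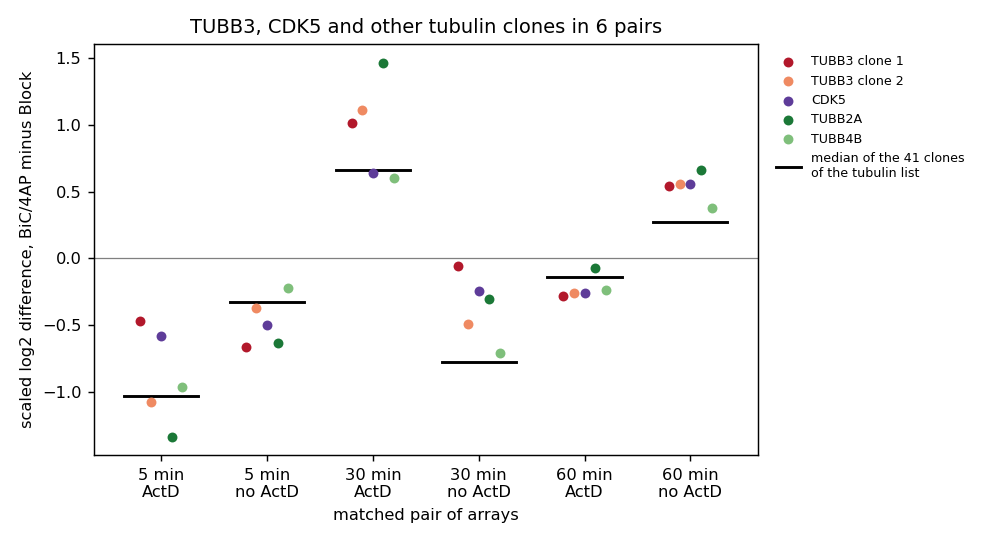
Scaled log2 difference (BiC/4AP minus Block) in each of the 6 matched pairs for both TUBB3 clones, CDK5, TUBB2A and the TUBB4B clone most like TUBB3, 1 point per clone, with a black line at the median of the 41 clones of the tubulin list. All 5 clones lie below 0 in 4 pairs and above 0 in the 30 min pair with ActD and the 60 min pair without it. TUBB2A and the TUBB4B clone were picked for their likeness over these same arrays, so their agreement is no separate evidence. The 7 TUBB4B clones had an r of -0.01 to 0.97 with the second TUBB3 clone.

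CDK5R1, which encodes the activator of CDK5, did not share the course of its kinase (r -0.37). Without ActD it read 41.3 at 5 min, 36.8 at 30 min and 41.8 at 60 min in BiC/4AP, against 28.9, 30.2 and 29.2 in Block, higher in each pair. These raw values did not overlap, whereas the scaled levels did (-1.46 to -1.01 in BiC/4AP and -2.22 to -1.14 in Block). With ActD it read 26.8, 27.9 and 33.2 in BiC/4AP, against 33.0, 31.2 and 52.7 in Block, lower in each pair. How many of all spots share these signs, or the raw separation without ActD, was not counted, so neither is read as particular to CDK5R1. The scaled difference was 0.44 without ActD (SE 0.16, unadjusted p = 0.027, adjusted p = 1 by limma) and -0.30 with it (SE 0.16, adjusted p = 0.94), and 0% and 0.0104% of spots passed these tests. An unadjusted p under 0.05 was found in 3.12% of spots without ActD and in 4.52% with it. The difference between the 2 effects was 0.74 (SE 0.22, unadjusted p = 0.013, adjusted p = 0.998), the 56th smallest p of 9600. It did not pass, as was true of all spots, and 2.95% of spots had an unadjusted p under 0.05.

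The second comparison asked what blocking transcription did to these RNAs. Over the 6 pairs of arrays with and without ActD, 0 of 10 clones passed, against 0.0104% of spots, and 0 had an unadjusted p under 0.05, against 2.09% of spots. The estimates ran between -0.21 for MARK4 (SE 0.20) and 0.35 for the second TUBB3 clone (SE 0.28), with 5 clones on each side of 0. MAPT gave 0.00 (interval -0.33 to 0.33) and NEFM -0.12 (interval -0.49 to 0.25). KIF1A was higher with ActD in 5 of 6 pairs, by 0.13 (SE 0.10, adjusted p = 0.999).

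The third comparison was between the times, within the 4 sets of arrays that share activity state and ActD. The array columns carry a leading number, 69 to 72 at 5 min, 73 to 76 at 30 min and 77 to 80 at 60 min. What this number stands for is not stated, and time cannot be told apart from its order. Between 30 and 5 min 44.5% of all spots passed (20.1% higher and 24.4% lower at 30 min), and 2 of the 10 clones did, both lower. Between 60 and 5 min 36.6% of spots passed (16.2% higher and 20.5% lower at 60 min), and 3 of 10 clones did, 1 higher and 2 lower. Between 60 and 30 min 3.15% of spots passed (3.03% higher and 0.115% lower) and 0 of 10 clones. An unadjusted p under 0.05 was found for 3, 3 and 1 members in these contrasts, against 54.1%, 46.7% and 16.3% of spots. The shares of the members were below those of all spots in each contrast. Of the spots called, 45.2% were higher at 30 min and 44.1% at 60 min than at 5 min, and these shares became 74.6% and 75.0% when arrays were centred on their medians, 72.3% and 72.4% with block medians subtracted, and 52.3% and 54.8% after quantile normalisation.

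KIF1A fell the most of the 10 clones. At 30 min it read 101 with ActD and 76.2 without it in BiC/4AP and 83.1 and 65.9 in Block, at 60 min 88.1 and 94.5 in BiC/4AP and 109 and 73.0 in Block, against 266 and 283 in BiC/4AP and 306 and 444 in Block at 5 min. The 4 arrays at 5 min lay far above the other 8, an order shared by 18.4% of all spots. The difference was -1.63 at 30 min (SE 0.12, adjusted p = 0.00014 by limma, a 3.09-fold lower level) and -1.52 at 60 min (SE 0.12, adjusted p = 0.00015, 2.86-fold lower), and it was lower in 4 of 4 sets at each time. It did not differ between 60 and 30 min beyond the spread (0.11, SE 0.12). The 23 other spots of its block, without the last position, had a median of -0.78 at 30 min and -0.61 at 60 min, with 19 of 23 lower in each case. With the median of each block subtracted KIF1A was lower by less, at -0.58 at 30 min (adjusted p = 0.0035) and -0.59 at 60 min (adjusted p = 0.0038). The clones most like it were TMED9, PERM1 and ASMTL (r 0.99 each over 12 arrays), of which ASMTL lay 26 and TMED9 63 spot numbers away. Over all named clones, 16.2% had an r over 0.8 with KIF1A. The level of KIF1A had an r of 0.82 with the log2 median intensity of the array. The parts of array brightness and of the position on the membrane were not tested.

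The first TUBB3 clone was also lower at both later times, at 30 min (difference -1.04, SE 0.27, adjusted p = 0.014, 2.05-fold lower) and at 60 min (-0.84, SE 0.27, adjusted p = 0.037, 1.79-fold lower), with 4 of 4 sets lower at each. Its scaled level was -0.96 ± 0.45 at 30 min and -0.76 ± 0.34 at 60 min, against 0.08 ± 0.34 at 5 min (SD, n = 4). The second TUBB3 clone gave -0.36 (SE 0.37) and -0.12 (SE 0.37), with adjusted p of 0.45 and 0.83, so the clones of this gene differed in whether they passed, and the difference between them was not tested. The call of the first clone rested on the scaling and on single sets of arrays: at 30 min its adjusted p was 0.069 after cyclic loess, 0.052 without the Block set without ActD and 0.074 without the Block set with ActD. At 60 min it was between 0.074 and 0.21 under quantile normalisation, cyclic loess, median centring and block medians. It was 0.19 without the Block set without ActD, 0.070 without the Block set with ActD and 0.077 without the BiC/4AP set without ActD. Without the BiC/4AP set with ActD, the second clone passed at 30 min (-0.92, adjusted p = 0.026).

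CDK5R1 was the 1 member that was higher later. It read between 27.9 and 36.8 at 30 min and between 29.2 and 52.7 at 60 min, against 26.8 to 41.3 at 5 min, and on the scaled axis its levels were -1.37 ± 0.30 at 30 min and -1.04 ± 0.16 at 60 min, against -1.77 ± 0.32 at 5 min (SD, n = 4). The rise at 60 min was 0.73 (SE 0.15, adjusted p = 0.0058, 1.66-fold) in 4 of 4 sets, and the scaled levels of 60 min were above all 4 of 5 min. The share of all spots with that order was not counted, while 11.1% had all 5 min arrays below all later ones. With block medians subtracted the rise was 1.21, and it passed there too. The difference at 30 min was 0.40 (SE 0.15, adjusted p = 0.053), which did not pass, and it did pass under 7 alternatives, quantile normalisation among them (0.60, adjusted p = 0.0082). Raw intensities overlapped between the times, but within each set the 60 min array read above that of 5 min. With ActD it read 33.2 against 26.8 in BiC/4AP and 52.7 against 33.0 in Block. Without ActD the readings were close, 41.8 against 41.3 in BiC/4AP and 29.2 against 28.9 in Block. The scaled rise is relative to the rest of the array. The level of CDK5R1 had an r of -0.69 with the log2 median intensity of the array, and the part of array brightness was not tested. The clones nearest to CDK5R1 over the 12 arrays were RASSF5 (r 0.93), RNF166 (0.88) and TMEM183A (0.88). INA, NEFM, MAPT, CDK5, MARK4 and TBCB did not pass in any contrast of times in the scaling used. The smallest adjusted p among them was that of TBCB, at 1.18 between 30 and 5 min (SE 0.54, adjusted p = 0.10), which became 2.02 (adjusted p = 0.0039) without the BiC/4AP set with ActD. Without that set TBCB also passed between 60 and 5 min (0.81, adjusted p = 0.047). Between 30 and 5 min TBCB also passed with block medians subtracted (1.89, adjusted p = 0.035), with the 10th percentile added (0.89, adjusted p = 0.0085) and with values of 10 missing (1.78, adjusted p = 0.018). MAPT passed there with block medians subtracted (0.67, adjusted p = 0.017, against 0.21 in the scaling used), and MARK4 with the 10th percentile added (0.63, adjusted p = 0.029). NEFM gave -0.37 between 30 and 5 min (SE 0.19, adjusted p = 0.13), and MAPT gave -0.44 between 60 and 30 min (SE 0.19, adjusted p = 0.29).

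**Figure D5:**
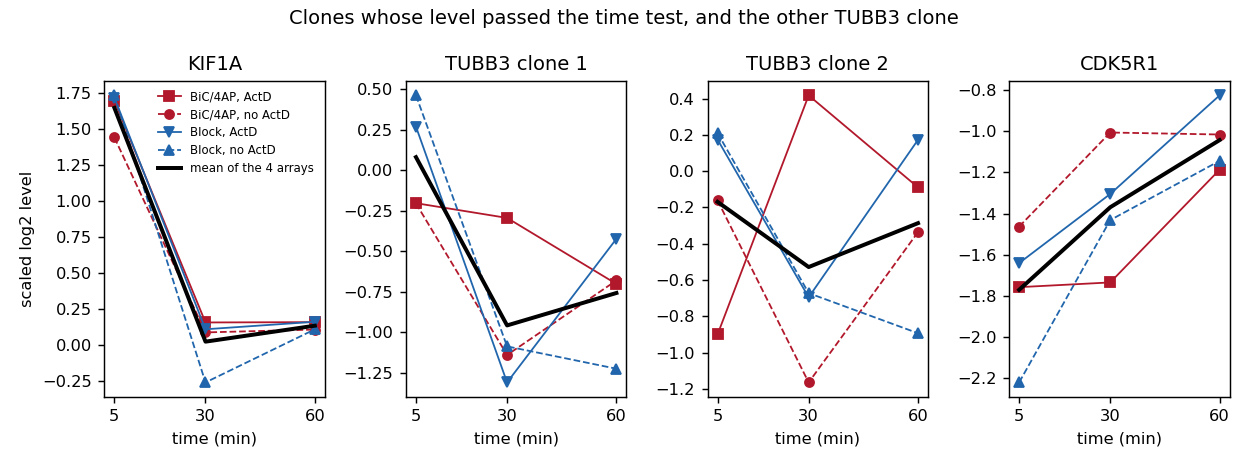
Scaled log2 level of KIF1A, both TUBB3 clones and CDK5R1 at 5, 30 and 60 min, with 1 line for each of the 4 sets of arrays (red for BiC/4AP, blue for Block, solid with ActD, dashed without it) and a black line for their mean. KIF1A is lower at 30 and 60 min than at 5 min in all 4 sets (mean differences -1.63 and -1.52), CDK5R1 is 0.73 higher at 60 min than at 5 min, and the TUBB3 lines cross.

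Other genes of these pathways, in lists that were chosen with earlier results of these data known, gave 0 calls for activity over the 6 pairs and 0 for ActD. The lists held tubulins (14 of 19 genes measured, 41 clones), tubulin folding and nucleation factors (16 of 25 genes, 22 clones), other microtubule-associated proteins (14 of 36, 18 clones), kinesins, dynein and dynactin (23 of 56, 28 clones), other tau kinases, phosphatases and partners of CDK5 (20 of 41, 33 clones) and other intermediate filaments (6 of 13, 15 clones). Apart from the tubulins, their median activity differences over the 6 pairs ran between -0.05 and 0.07. The 2 brightest genes of each list, each read from its brightest clone only, gave the following activity differences. The alpha tubulins TUBA1B and TUBA1A gave 0.13 (SE 0.13) and 0.05 (SE 0.13), and ARL2 and TBCC, which act in tubulin folding, 0.16 (SE 0.15) and 0.14 (SE 0.14). That TUBA1B clone is 1 of 13 and does not stand for the gene. Its r with the second TUBB3 clone was -0.74, whereas the other TUBA1B clones had 0.11 to 0.90. MAP7D1, a microtubule-associated protein, gave 0.11 (SE 0.13), HDAC6, a tubulin deacetylase, 0.06 (SE 0.09), and the kinesins KIFC1 and KIF2C 0.13 (SE 0.11) and 0.20 (SE 0.14). CSNK1E, a casein kinase that can phosphorylate tau, gave 0.21 (SE 0.09, adjusted p = 0.90), CDK5RAP1 0.26 (SE 0.13), and the keratins KRT18 and KRT8 0.22 (SE 0.10) and -0.23 (SE 0.14). None of these 12 passed.

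Between 30 and 5 min, 20.1% of all spots were called higher and 24.4% lower, the shares to set beside the counts that follow. Of the 41 tubulin clones 0 rose and 4 fell, a smaller share than the 44.5% of all spots. Of 28 transport clones 4 rose and 8 fell. Among the 33 clones of tau kinases and phosphatases 7 rose and 3 fell, and among 22 folding clones 4 rose and 4 fell. Among 18 clones of microtubule-associated proteins 1 rose and 3 fell, and among 15 filament clones 2 rose and 4 fell. Called clones of 1 gene could go in opposite directions. Those of KRT18 gave 1.12, -0.55, -0.62 and -0.47, those of MAP1S -1.67 and 0.63, and those of TBCD -1.36 and 0.64. A call is therefore read for the clone and not for its gene. KIFC1, a kinesin of the mitotic spindle, rose by 1.04 (SE 0.13, adjusted p = 0.00067) and CSNK1E by 1.13 (SE 0.13, adjusted p = 0.00047), opposite to KIF1A. Of the 4 astrocyte marker clones, 1 rose and 2 fell in the same contrast: SOX9 rose by 0.83 (adjusted p = 0.022), and GFAP and ALDOC fell by 0.52 and 1.88 (adjusted p = 0.0056 and 0.00022). Of the 10 neuronal marker clones 2 rose, ENO2 by 0.63 and STMN2 by 0.48, and 3 fell, UCHL1 by 1.04, THY1 by 0.69 and ELAVL3 by 0.67. The mean level of the 4 astrocyte clones was between -0.48 and -0.26 at 30 min and between -0.48 and -0.37 at 60 min, against 0.00 to 0.26 at 5 min, and its part in the time differences was not tested.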

How the data were processed

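Raw spot intensity was deposited by the authors in 1 table with a column for each of the 12 arrays, read from phosphorimager scans of 33P-labelled cDNA, with no normalisation; the deposited value table held the same intensity in 115200 of 115200 values. Spots were joined to the annotation by spot number (8496 of 9600 with 1 symbol). The 152 clones of ribosomal protein genes averaged 2.01 scaled log2 in this order, against 0.35 by the other index column. A second check was weak: where a gene had more than 1 clone (1488 genes), its first 2 clones correlated with a rho of only 0.15. All members but TUBB3 rest on 1 clone, so their values are those of the clone and may not hold for the gene. Lowest intensities included the value 10 on 78 to 161 spots of an array. No spot was removed and no pseudocount added.

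Log2 intensity was z-scored per array, as in the study's methods, and rescaled by its mean SD. limma 3.58.1 (R 4.3.3, statmod 1.5.0) with empirical Bayes was fitted to all spots with matched pairs or sets as blocks, with Benjamini-Hochberg adjustment and a limit of 0.05. The code was tested on simulated data. The number of arrays limits precision, and p-values rest on how single arrays of unlike conditions scatter, which may be technical. The labels give 3 coverslips pooled per sample, and the methods describe pooling over separate experiments. The coordinates of the clones were not used here.

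The text names every member clone, the brightest 2 genes of each list, any list gene passing in a comparison other than time (there was none), and for each member clone above background the 3 clones with the highest Pearson r. Genes past the limit in the time contrasts are otherwise given as counts. Members and lists were chosen with earlier results of these data known. Contrasts of the activity difference between times and the likeness to other tubulins were added after seeing the data. Alternatives covered scaling, low intensities, spots tested, moderation, model, each pair or set left out and the other deposited table.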

Additional observations from a re-analysis of the deposited data

How the results depend on the processing

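Of the differences of single clones, 140 in all, 82 lay within 1 SE of 0 and no direction was read for them. Among the others, 12 values under an alternative changed sign. MARK4 between 30 and 5 min was -0.0224 after quantile normalisation and -0.161 after cyclic loess, TBCB between 60 and 5 min -0.0829 and -0.124, and MAPT between 60 and 5 min 0.0978 with median centring and 0.218 with block medians subtracted. TBCB in the activity difference between 60 and 5 min was 0.0455 with values of 10 set to missing, and -1.34 to 0.0806 with a pair left out. With a set or pair left out, INA between 60 and 30 min ran from -0.333 to 0.0449, CDK5R1 activity at 5 min from -0.12 to 0.76, TUBB3 clone 1 activity at 30 min from -0.053 to 1.02 and INA activity at 60 min from -0.18 to 0.81.

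The count of member clones called between 30 and 5 min, 2, was 5 with block medians subtracted or the 10th percentile added, 4 with values of 10 missing, and 1 to 5 with a set left out. Without the BiC/4AP set with ActD it was 5. Between 60 and 5 min it was 2 to 4 with a set left out. Clones past 1.4 in both pairs at 5 min, 0, were 2 with the 10th percentile added or only the brightest 6400 spots kept. At 30 min they were 0 with the brightest 6400 spots, because MARK4 and TBCB are not among them. The activity and ActD counts stayed at 0 in every alternative run. KIF1A kept its call under each, with differences from -1.90 to -0.58 at 30 min. Median centring moved the median of all spots to 0.29 at 30 min and 0.36 at 60 min relative to 5 min, against 0.01 and 0.06 in the scaling used. CDK5R1 at 30 min passed in 7 alternatives and without 1 set. Apart from the spots left out, the cause of these shifts was not tested.

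Signal over background limits MARK4 and TBCB, and single arrays limit all conditions. The pairs and sets of arrays used as blocks were matched by condition. For replicate numbers, no paired analysis was possible because every array carries replicate number 1 and each condition has 1 array.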
